A study of Mus musculus with 60 samples.

Results

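The largest cluster of overlapping circular RNAs (circRNAs) in 5 mouse organs lay on chromosome 8, chr8:78037360-78147376 (GRCm39), over 110.017 kb. It held 13 of the 2799 different circRNAs in the authors' deposited tables, and every circRNA with both ends between these positions was taken. The locus was chosen by a measured value, the number of circRNAs listed there, so that number and the crowding of their ends are described here without a test. By the spacing of their ends, all 13 come from a single gene, Arhgap10 (minus strand). The study sequenced circRNA of whole brain, heart, kidney, liver and spleen from 3 Ftsj1_DF and 3 WT mice per organ, Ftsj1_DF being the labels' name for the Ftsj1-deficient genotype. All 6 mice were male, 4 months old and without special treatment, 4 of them being brothers and the other 2 also brothers. The labels do not describe the Ftsj1 allele. RNA was freed of ribosomal RNA, polyadenylated and treated with RNase R, which degrades linear RNA and spares closed circles. Each library was run in 2 sequencing batches, since reads were few in the first. RNA came from whole organs, so a circle made in fewer cells and a circle made at a lower level per cell cannot be told apart.

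A circRNA forms when the end of an exon is spliced back to the beginning of the same or an earlier exon, so that its only mark in short reads is the junction between those exons. A gene can give many circles when several of its exons serve as the first or the last, and long introns beside an exon are a known feature of exons that circularise. Arhgap10 (also called GRAF2 or PS-GAP) encodes a GTPase-activating protein, which speeds the hydrolysis of GTP by small GTPases such as Cdc42, a switch that controls actin filaments. Ftsj1 encodes a 2'-O-methyltransferase that modifies tRNA.

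The gene was found from distances and not from positions, because the gene annotation used, GENCODE M21, belongs to the older build GRCm38. By genome coordinate, the 13 circRNAs have 7 different starts and 8 different ends. All 15 of these positions fell on exon edges of Arhgap10 when the gene was moved by 1 constant distance. The next best of 55343 genes matched 3 of the 15. Exons are numbered below from 1 to 23 in the direction of transcription of the annotated transcript with 23 exons, and a circle is named by its first and last exon. As the gene is on the minus strand, the first exon of a circle lies at the higher coordinate.

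The sequences below are the back-splice junctions of the 7 circles that carry most of the level or show the shared exons, read from the GENCODE M21 transcript on the sense strand, 5' to 3'. The last 20 bases of the last exon are in lower case and the first 20 bases of the first exon, to which they are joined, are in capitals.
exons 9-12 (chr8:78111380-78137757): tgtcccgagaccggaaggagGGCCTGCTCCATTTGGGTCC
exons 9-13 (chr8:78109354-78137757): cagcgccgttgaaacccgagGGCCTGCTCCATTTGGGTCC
exons 14-16 (chr8:78078243-78091789): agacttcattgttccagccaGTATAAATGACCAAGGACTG
exons 14-18 (chr8:78071269-78091789): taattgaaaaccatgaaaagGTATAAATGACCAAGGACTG
exons 14-19 (chr8:78037360-78091789): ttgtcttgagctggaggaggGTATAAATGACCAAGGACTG
exons 15-18 (chr8:78071269-78085263): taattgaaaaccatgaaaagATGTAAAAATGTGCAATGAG
exons 16-18 (chr8:78071269-78078301): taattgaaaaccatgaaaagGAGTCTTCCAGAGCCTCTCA

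The capitals of the exons 9-12 and 9-13 circles are identical, because both begin with exon 9, and they differ only in the exon that is joined to it. The exons 14-16, 14-18 and 14-19 circles likewise share the first bases of exon 14. The exons 14-18, 15-18 and 16-18 circles share the lower-case letters, the end of exon 18. Circles with a common exon edge therefore differ on 1 side of the junction.

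The exons 9-12 and 9-13 circles differ by exon 13, which is 66 bases long and is present in 2 of the 3 annotated transcripts of the gene that hold exon 12. It is printed because the level of these circles differed between organs as described further on.
exon 13: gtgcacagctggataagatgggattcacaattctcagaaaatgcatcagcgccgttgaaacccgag

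The exons 14-16 circle was the only circle that began at exon 14 in liver and is short enough to print whole. It has 222 bases if all 3 exons between its ends are included, with exon 15 in capitals, and its last base is joined to its first.
exons 14-16: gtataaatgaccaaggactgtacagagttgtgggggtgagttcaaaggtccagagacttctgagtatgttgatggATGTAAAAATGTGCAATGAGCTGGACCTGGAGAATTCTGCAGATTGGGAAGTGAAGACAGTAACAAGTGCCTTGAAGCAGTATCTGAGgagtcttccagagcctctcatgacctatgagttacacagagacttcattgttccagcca

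The circles covered exons 6 to 19 and none of the exons at either end of the gene. All of the exons they cover are coding in the annotation. Exons 6, 8, 9, 11, 12, 14, 15 and 16 served as first exons, and exons 10, 12, 13, 15, 16, 18 and 19 as last exons. Exon 14 was the most used first exon, with 4 circles (exons 14-15, 14-16, 14-18 and 14-19). Exons 15 and 18 were the most used last exons, with 3 circles each. Exon 15 was crossed by the most circles, 8 of 13. Exons 7 and 17 lay inside circles and were never an end.

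Of the 13 circles, 10 shared their last exon with another, 8 shared their first exon, and 12 shared at least 1 of them. The exception was the exons 6-10 circle (chr8:78136177-78147376), which was joined to the others only by overlap. Sharing an end was about as common elsewhere, at 92.3% of the circles of this locus and 93.2% of the 1051 circles in other loci with more than 1 circle. The circles had from 2 to 6 exons (median 5). Their length without introns, if every exon between the ends is kept, ran from 163 bases for exons 14-15 to 639 bases for exons 14-19, with a median of 357. The span with introns ran from 6.614 kb for exons 14-15 to 54.43 kb for exons 14-19, and the median of 26.25 kb compared with 5.906 kb over all 2799 circRNAs. The length without introns was a multiple of 3 in 5 circles (exons 9-12, 9-13, 11-15, 14-16 and 14-19).

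**Figure D1:**
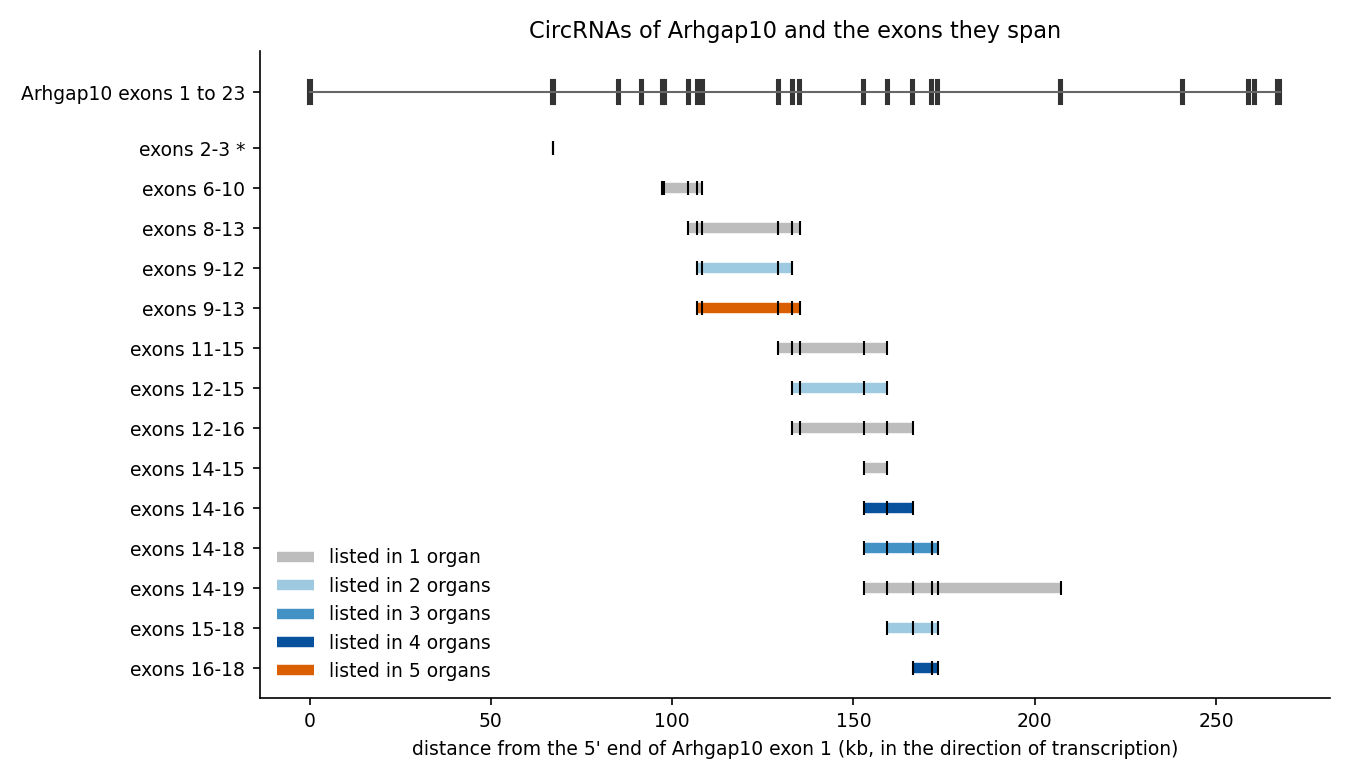
Map of the 23 exons of Arhgap10 and of its circles, with distance from the beginning of exon 1 in kb on the horizontal axis (intron lengths from GENCODE M21) and each bar running from the first to the last exon of a circle, ticks marking the exons and colours the number of organs that list it. The circle marked with an asterisk, exons 2-3, belongs to the gene but lies 29.946 kb outside the locus, and the bars of exons 14-15, 14-16, 14-18 and 14-19 begin together.

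The introns beside the most used ends varied in length. Exon 18 is followed by an intron of 33.758 kb, the second longest of 22, and exon 19 by the third longest, 33.423 kb. Exon 15, as often a last exon as exon 18, is followed by an intron of 6.874 kb. Exon 14 is preceded by an intron of 17.564 kb. Over all first exons used, the median intron before them was 6447.5 bases, and over all last exons used, the median intron after them was 17564 bases. The median intron of the gene was 6313 bases, close to the value before first exons and below that after last exons. The exons 9-12 circle in contrast lies between an intron of 2.369 kb before exon 9 and 1 of 1.96 kb after exon 12, both shorter than that median. The longest intron, 66.706 kb after exon 1, precedes exon 2, where the exons 2-3 circle outside the locus begins.

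The 13 circles filled 28 entries of the authors' deposited tables. Kidney listed 9 circles, heart 8, brain 7, and liver and spleen 2 each. The authors removed low expression in each organ by itself, so a circle that is not listed is not shown to be absent. Only the exons 9-13 circle was listed in all 5 organs. The exons 14-16 circle was missing from spleen alone, and the exons 16-18 circle from liver alone. The exons 14-18 circle was listed in brain, heart and kidney. Brain and heart both listed exons 9-12 and 15-18, and heart and kidney both listed exons 12-15 (chr8:78085176-78111425). The other 6 circles had 1 organ each: exons 8-13 (chr8:78109354-78140256) in brain, exons 12-16 (chr8:78078243-78111425) in heart, and exons 6-10, 11-15 (chr8:78085176-78115364), 14-15 (chr8:78085176-78091789) and 14-19 in kidney.

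Levels are mean normalized counts, the deposited mean over all libraries of an organ, Ftsj1_DF and WT together. They were scaled within each organ, so the rank of a circle in its table is given beside them, and only ranks and ratios are set side by side across organs. No spread between mice comes with these means, and neighbours in an order were not tested against each other.

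In brain the exons 9-12 circle led the locus with a mean normalized count of 29.7 in the authors' deposited table, rank 75 of 1856. The exons 16-18 circle followed at 23.1 (rank 129) and the exons 14-18 circle at 10.9 (rank 338) in the authors' deposited table for brain. Lower in the authors' deposited brain table stood exons 15-18 at 6.76, exons 9-13 at 4.57, exons 14-16 at 2.41 and exons 8-13 at 1.36, the last at rank 1667. Thus 5 of the 7 circles lay above the median of the brain table, 3.87.

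Heart had the same leading circles in the other order. Exons 16-18 reached 27.7 (rank 25 of 664) and exons 9-12 reached 22.7 (rank 31) in the authors' deposited table for heart. Exons 14-16 at 6.87, exons 9-13 at 5.65, exons 14-18 at 4.75 and exons 15-18 at 3.16 followed in the authors' deposited heart table. The circles that join exon 12 to later exons, exons 12-15 at 2.22 and exons 12-16 at 1.95, were the lowest there, below the table's median of 2.78.

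Kidney was led by another circle. Exons 14-18 stood at 34.2, rank 25 of 996, in the authors' deposited table for kidney. Exons 16-18 at 17.8, exons 14-16 at 15.3 and exons 9-13 at 9.55 came next in the authors' deposited kidney table. Exons 14-19 stood at 4.85, and exons 14-15 (1.51), 11-15 (1.29), 12-15 (1.18) and 6-10 (0.957) lay below that table's median of 3.33. The exons 9-12 circle, which ranked first or second of the locus in brain and heart, was not listed in kidney.

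In the authors' deposited table for liver the exons 14-16 circle had a mean normalized count of 14.7 (rank 291 of 900) and the exons 9-13 circle 3.99 (rank 756). In the authors' deposited table for spleen the exons 16-18 circle had 3.86 (rank 131 of 308) and the exons 9-13 circle 3.28 (rank 156). The table's median was 8.75 in liver and 3.32 in spleen, so 1 of the 2 circles lay above the median in each. The locus made up 1.82% of the summed level in heart, 1.28% in kidney, 0.511% in brain, 0.333% in spleen and 0.0986% in liver, computed from the authors' deposited tables. These shares depend on the whole of each filtered table, which summed to 4108 over 664 circRNAs in heart and to 15435 over 1856 in brain.

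**Figure D2:**
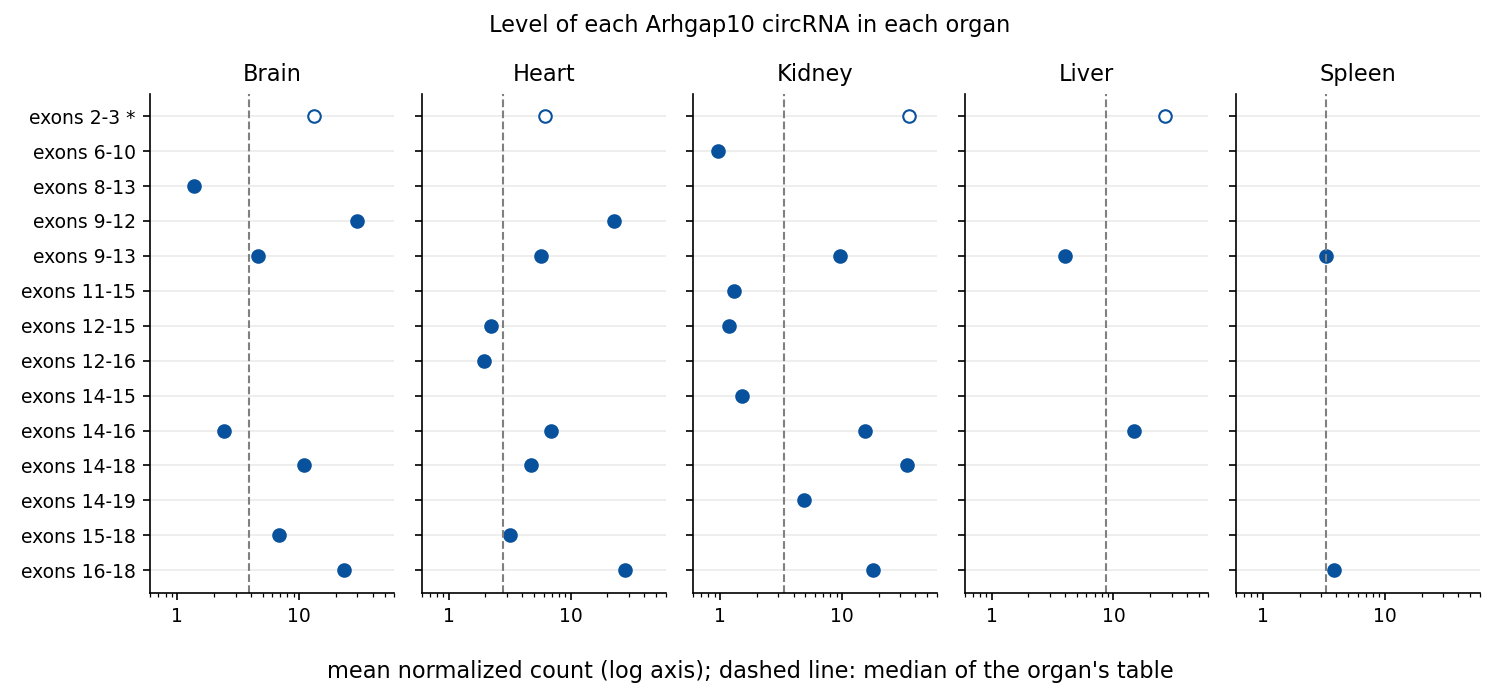
Mean normalized count of each Arhgap10 circle (log axis) in the 5 organs, Ftsj1_DF and WT together, with filled points for the locus, open points for the exons 2-3 circle outside it and a dashed line at the median of the organ's table. Exons 9-12 and 16-18 are rightmost of the locus in brain and heart, exons 14-18 in kidney and exons 14-16 in liver.

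The balance between circles that share an exon edge differed from organ to organ. For each circle that ends at exon 18, the choice of the first exon can be read as a ratio within an organ. The ratio of the exons 14-18 circle to the exons 16-18 circle was 1.92 in kidney, 0.474 in brain and 0.171 in heart, from the authors' deposited tables, an 11.2-fold range. The ratio of the exons 14-18 circle to the exons 15-18 circle moved little between the organs that list both, 1.62 in brain and 1.501 in heart. For the circles that begin at exon 14, the ratio of exons 14-18 to exons 14-16 was 4.55 in brain, 2.23 in kidney and 0.691 in heart, from the authors' deposited tables. For the circles that begin at exon 9, the circle ending at exon 12 predominated where both were listed. The exons 9-12 circle had 6.5 times the level of exons 9-13 in brain and 4.01 times in heart. Of these 2 circles, kidney, liver and spleen listed only exons 9-13, which ends at exon 13. These ratios have no error, because the deposited means come without values per library, and the differences between organs were not tested.

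As a share of the locus, the 3' side of the crowded region weighed most in kidney. Circles that lie wholly within exons 14 to 19 made up 85.0% of the locus sum in kidney, 78.7% in liver, 56.6% in heart, 54.8% in brain and 54.1% in spleen. Circles within exons 6 to 13 made up 45.9% in spleen, 45.2% in brain, 37.8% in heart, 21.3% in liver and 12.1% in kidney. Circles that cross from exon 13 or earlier to exon 14 or later (exons 11-15, 12-15 and 12-16) were always minor, at 5.57% in heart and 2.85% in kidney. No such circle was listed in brain, liver or spleen.

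**Figure D3:**
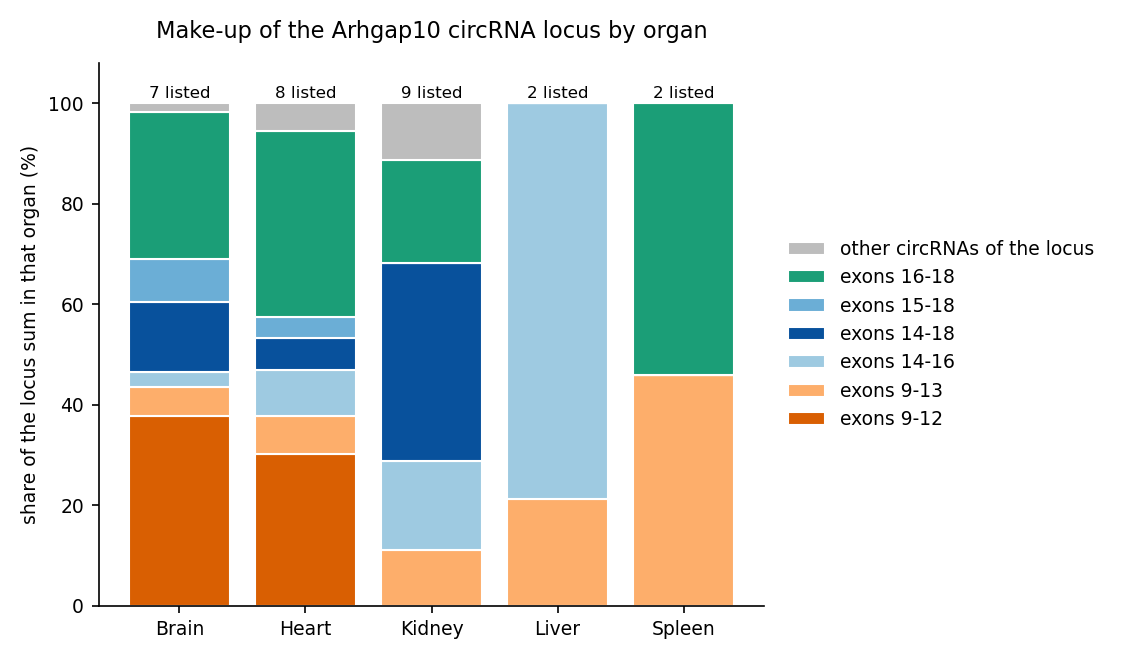
Share of the summed mean normalized count of the locus held by each circle, in percent, for the 5 organs, with the number of circles listed above each bar. The exons 9-12 share is 37.7% in brain and 30.2% in heart, the exons 14-18 share is 39.4% in kidney, and liver and spleen list 2 circles each.

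The comparison that the study was designed for is Ftsj1_DF against WT within each organ. Fold changes, standard errors (SE) and p-values below are those of the authors' DESeq2 test, and the sign is given as deposited, because the sources used here do not say which genotype is the numerator. No circle of the locus differed between Ftsj1_DF and WT mice past an adjusted p of 0.05 in any organ. Of the 28 entries, 27 have an adjusted p, and the smallest is 0.996 in the authors' deposited tables. Over all circRNAs tested, the share past that threshold was 0% in brain, heart, kidney and spleen and 0.113% in liver. The liver share is 1 circRNA of the 883 with a p-value, of which 296 have no adjusted p. A count of 0 at the locus is thus what the background gives.

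At an unadjusted p below 0.05 the locus had 1 entry of 28, in liver. The shares of all circRNAs below it were 9.06% in liver, 2.86% in heart, 2.05% in both brain and spleen and 1.82% in kidney. The entry was the exons 9-13 circle, with a log2 fold change of -4.95 (SE 2.495, 95% interval -9.84 to -0.05, p = 0.0475) in the liver table, as the authors' deposited table gives it without an adjusted p. That fold change is large for a mean normalized count of 3.99, exceeding the log2 of the mean by 2.95 in absolute size. Entries that exceed it by more than 2.5 make up 15% of the liver table, all of them negative, against 3.21% in kidney, 1.19% in brain, 1.05% in heart and 0.974% in spleen. The exons 6-10 circle in kidney was the other entry of the locus past this limit, which it reached through a low mean: the authors' deposited table gives -2.66 (SE 2.33) at a mean normalized count of 0.957.

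How much the data could have shown differs between circles. The narrowest intervals belonged to the leading circles of heart. The exons 16-18 circle in heart had a log2 fold change of 0.09 (SE 0.38, 95% interval -0.65 to 0.83) in the authors' deposited table. The exons 9-12 circle in heart had 0.01 (SE 0.46, 95% interval -0.90 to 0.91) in the authors' deposited table. These were the only entries of the locus whose interval lay within 1 log2 unit of 0 on both sides, a change of under 2-fold either way.

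In brain the intervals of the same circles were wider. Exons 9-12 had a log2 fold change of -0.34 (SE 1.47, 95% interval -3.22 to 2.54) in the authors' deposited table for brain, although its level there was the highest of the locus. Exons 16-18 had 0.01 (SE 1.12) and exons 14-18 had -0.70 (SE 1.49) in the authors' deposited table for brain. The kidney leader, exons 14-18, had 0.56 (SE 0.95, 95% interval -1.30 to 2.41) in the authors' deposited table, and exons 16-18 had -0.98 (SE 1.22) there. Exons 14-16 had 1.14 (SE 0.78) in heart, -0.64 (SE 0.98) in kidney, -0.28 (SE 1.18) in liver and -1.36 (SE 2.11) in brain in the authors' deposited tables. For spleen, the authors' deposited table gives -2.66 (SE 1.96) for exons 16-18 and -2.16 (SE 1.82) for exons 9-13. All of these intervals hold 0, and apart from the 2 heart circles above, each reaches past 1 log2 unit on at least 1 side.

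The signs were mixed, with 13 entries positive and 15 negative. The median log2 fold change of the locus, beside that of all circRNAs in the authors' deposited table of the organ, was 0.01 against -0.14 in brain, 0.17 against 0.12 in heart and -0.32 against 0.20 in kidney. It was -2.61 against -0.22 in liver and -2.41 against -0.55 in spleen, each from 2 circles. The liver median rests on the exons 9-13 circle, without which the remaining exons 14-16 circle stands at -0.28.

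**Figure D4:**
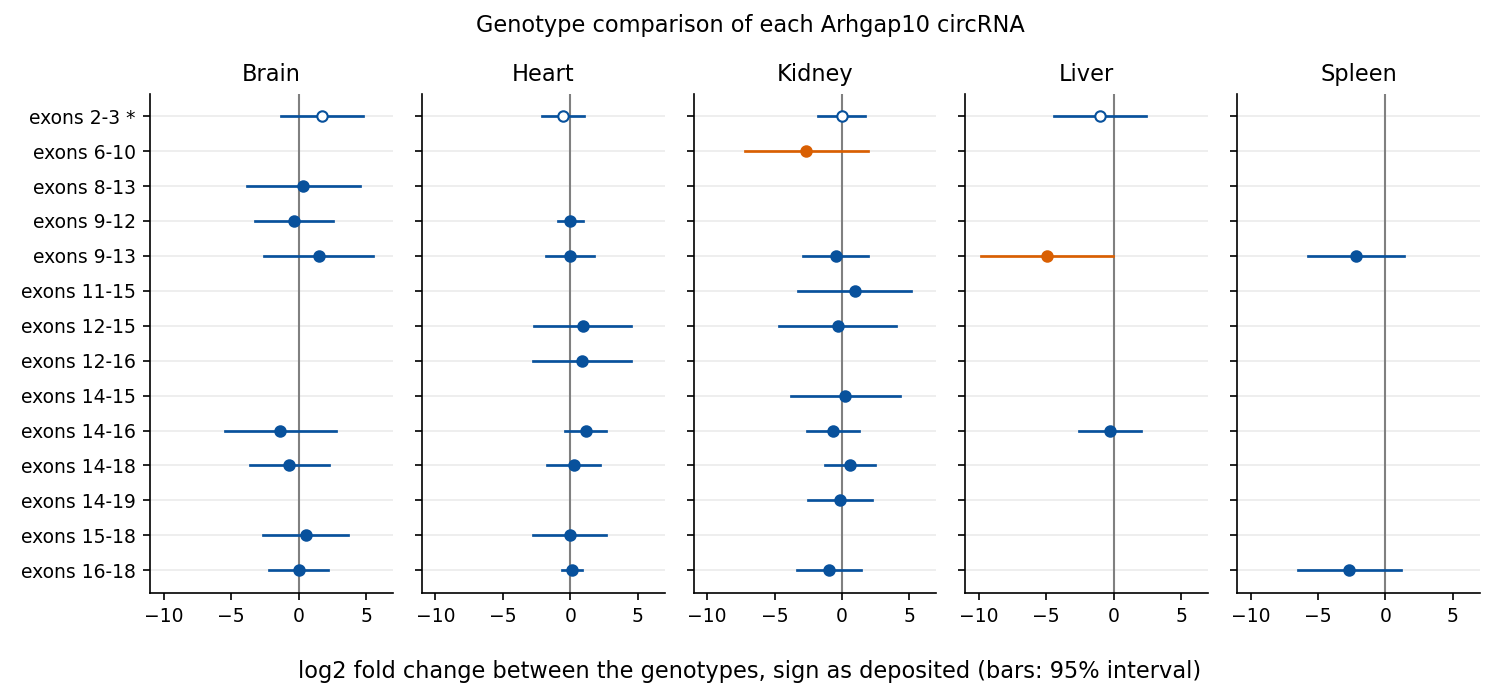
Log2 fold change between Ftsj1_DF and WT, with the sign as deposited, for each Arhgap10 circle in the 5 organs, with 95% intervals (1.96 SE) as bars, open points for the exons 2-3 circle outside the locus and orange for entries whose absolute log2 fold change exceeds the log2 of the mean normalized count by more than 2.5. Of the 28 bars of the locus 27 hold 0, the exception being exons 9-13 in liver, and the narrowest are exons 16-18 and 9-12 in heart.

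Whether the genotype comparison of a circle differed between organs was tested for every circRNA listed in both organs of a pair, 3341 comparisons in all, as the difference of the log2 fold changes over its SE (normal approximation, two-sided, Benjamini-Hochberg adjustment over the 3341). The organs come from the same mice, so this SE is approximate. None of the 28 comparisons of the locus passed an adjusted p of 0.05 (smallest 0.9996), and the share past it over all circRNAs was 0%. At an unadjusted p below 0.05 there was 1 of 28, beside 3.44% of all comparisons. It was again the exons 9-13 circle, at 1.502 in brain and -4.95 in liver in the authors' deposited tables, a difference of 6.45 (SE 3.24, p = 0.0464).

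The annotation by exon spacing could be extended to the other circRNAs, and 2414 of 2799 (86.2%) were given a single gene. Arhgap10 then had the most circRNAs of any gene, 14, with Dgki (a diacylglycerol kinase) at 13, Rere (a nuclear receptor co-regulator) at 12, Pkhd1 (fibrocystin, a protein of renal tubules and bile ducts) at 11 and Tasp1 (a protease that cleaves MLL proteins) at 10. The 14th Arhgap10 circle joins exons 2 and 3 (chr8:78177322-78177552), spans 231 bases and was the circle of the gene just outside the limits of the locus. Its mean normalized count in the authors' deposited tables was 13.2 in brain (rank 272 of 1856), 6.12 in heart (rank 169 of 664), 35.1 in kidney (rank 24 of 996) and 26.6 in liver (rank 156 of 900). In kidney and liver it thus stood above every circle of the locus, 34.2 being the highest there in kidney and 14.7 in liver. Its log2 fold change in the authors' deposited tables was -0.03 (SE 0.89) in kidney, -1.02 (SE 1.73) in liver, 1.73 (SE 1.55) in brain and -0.54 (SE 0.79) in heart, all with intervals that hold 0.

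Beside the Tasp1 and Rere loci, the next densest, the Arhgap10 locus had fewer circles listed in brain and more in heart. The Tasp1 locus (chr2:139725692-139899419) and the Rere locus (chr4:150490653-150619402) each held 12 circRNAs, and brain listed all 12 of both. At the Arhgap10 locus brain listed 7 of 13. Kidney listed 9 circles there, 6 at the Tasp1 locus and 7 at the Rere locus. Each of these loci had 7 circRNAs listed in 2 or more organs. Heart listed 8 of the Arhgap10 circles, 2 at the Tasp1 locus and 2 at the Rere locus. The highest level at each locus in brain was 29.7 for Arhgap10, 47.9 for Tasp1 and 19.9 for Rere, and in liver 14.7, 122.5 and 45.4, as mean normalized counts in the authors' deposited tables. Of the 3 loci with 9 circRNAs, the one with the most table entries, 16, lies around Foxp1 (a transcription factor) on chromosome 6. Of its 9 circRNAs, 2 were given to Foxp1. At the Foxp1 locus brain listed 5 circRNAs, heart 1, kidney 3 and liver 7. The highest level there was 9.65 in brain and 42.0 in liver. The median span with introns was 26250 bases at the Arhgap10 locus, shorter than the 39549 at the Tasp1 locus and the 36534 at the Rere locus. It was longer than the 10551 at the Foxp1 locus. These loci were picked by their number of circRNAs, and no test was made of the differences. In the authors' deposited tables no entry of the 3 other loci passed an adjusted p of 0.05.

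The exons 9-13 circle was the most widely listed, and its level was compared in rank with those of the other circRNAs present in all 5 organs, 133 in total. The share of the table below it was 82.8% in kidney, 72.3% in heart, 56.6% in brain, 49.4% in spleen and 16% in liver. The circRNAs with the most similar shares, by the summed absolute difference over the 5 organs, were from Fancl (a ubiquitin ligase of the Fanconi anaemia pathway, chr11:26347746-26384500) at 58.7 points, Gpatch2l (chr12:86307351-86315835) at 63.7 points and Srpk2 (a kinase of splicing factors, chr5:23745373-23770263) at 77.2 points. All of them stood lower in liver than in kidney, the Fancl circle at 31.4% and 86.4% of the table. With 5 organs and ranks set within tables of unequal size, this likeness is a description.

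Other genes of the pathway were looked up from a list of 21 besides Arhgap10, made of its GRAF relatives, other GTPase-activating proteins, and their GTPases and partners. Of these, 11 had at least 1 circRNA, 30 in all, in 63 entries of the tables. Arhgap32 (a GTPase-activating protein of neurons) and Ptk2 (focal adhesion kinase) had 7 circRNAs each and Arhgap26 (GRAF1) 6. No circRNA was given to the relative Arhgap42 nor to the GTPase Rac1. None of the 63 entries passed an adjusted p of 0.05 in the authors' deposited tables, and 34 were positive and 29 negative. Several of the 9 liver entries, from Arhgap26 and Arhgap32, have no adjusted p and could not pass. The share of all circRNAs past it was 0.113% in liver and 0% in brain, heart, kidney and spleen. At an unadjusted p below 0.05 there was 1 of the 62 with a p, or 1 of 8 in liver, where the share of all circRNAs is 9.06%. It was an Arhgap26 circle in liver with a log2 fold change of -5.68 (SE 2.12, p = 0.00733, adjusted p = 0.15), as given in the authors' deposited table. The median log2 fold change of the list, with the organs pooled, was 0.02, beside -0.04 over all entries. By organ it was -0.20 against -0.14 over all circRNAs in brain, 0.40 against 0.12 in heart and 0.21 against 0.20 in kidney. In liver it was -1.44 against -0.22, from 9 entries, and in spleen 0.56 against -0.55, from 4. The departure of these medians from those of all circRNAs was not tested.

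The organs matched their labels as far as circRNAs of marker genes can tell. Circles of the brain markers (4 of 4 genes, among them Rims1 and Rims2) stood in the brain table only, and those of the kidney markers (3 of 5) in the kidney table only. Heart markers (3 of 5) had 8 entries in heart and 3 in brain. No liver marker had a circRNA, and the single spleen marker found, Ikzf1, was listed in all 5 organs, so liver and spleen were not checked in this way. No circRNA was given to Ftsj1, so the genotype labels could not be checked from these tables. Depth per library is unknown.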

How the data were processed

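Each organ has 1 table of a comparison made by the authors, 5 in all. Per the file headers they hold a mean abundance signal (baseMean, here the mean normalized count), a log2 fold change with SE, a test score (the Wald statistic), and p-values with adjusted p-values, all as deposited. BWA 0.7.17-r1188, DESeq2 and the build GRCm39 are named in the submitters' processing notes. Not given in the sources used here are the circRNA caller, the filter limit, the model formula, how the 2 batches were treated and which genotype is the numerator. If both runs of a library entered as separate samples, the errors would be too small.

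Since no values per library were used, the planned count test was replaced by the authors' comparison, whose p-values and adjusted p-values were recomputed from the deposited statistics without a difference. In liver, 296 entries have a p-value and no adjusted p. Ends were matched exactly and overlapping circRNAs joined into loci. A circRNA was given a gene when both ends lay on exon edges of that gene (GENCODE M21, within 5 Mb), at a distance shared with another circRNA within 3 Mb. No position was converted between builds. Scripts ran in Python 3.11.15 with pandas 2.3.3 and scipy 1.17.1 and were tested on simulated data. All 13 circles are named, and the 3 next densest loci and the 3 most similar circRNAs were taken by count and rank. From the pathway list 1 gene and from the marker lists 1 gene were left out and are not reported here. The members and gene lists were chosen with earlier results of these data known.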

Additional observations from a re-analysis of the deposited data

How the results depend on the processing

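Of 40 alternative values, 23 stayed within the limits set for calling them unchanged and 17 moved. The limits were wide: for counts, 9 circles instead of 13 was called unchanged. Keeping only entries with a mean normalized count of at least 5 left 6 circles of the locus (4 each in brain, heart and kidney, 1 in liver, 0 in spleen), and of at least 10 left 4 (3 each in brain and kidney, 2 in heart, 1 in liver, 0 in spleen). The circles still overlapping then numbered 4 and 3, which put the locus at place 10, among 5 loci with 4 circles, and at place 3, among 11 loci with 3. With the table of kidney left out, 9 circles were counted and the locus took place 3, shared by 3 loci, and without the table of brain, heart, liver or spleen the counts were 12, 12, 13 and 13 and it kept the first place, which it shared with 2 other loci when the heart table was left out. Joining circles only by a shared end gave sets of 9, 3 and 1, and taking all circles of the gene, an alternative chosen after seeing the data, gave 14. The count sharing an end stayed at 12 when a gap of 5 bases was allowed. The liver median log2 fold change was -0.28 with the minimum of 5 and also without entries whose fold change is large for their level (absolute log2 fold change over the log2 of the mean by more than 2.5), since 1 circle is left. The medians of brain, heart, kidney and spleen moved by less than the limits. The limit for a median was the median SE of the locus in that organ, 1.60, 0.948, 1.23 and 1.89 in this order. It is so wide that a change of sign can count as unchanged. With the minimum of 5 the brain median turned from 0.01 to -0.17 (-0.05 as a weighted mean), the heart median was 0.05 instead of 0.17 and the kidney median -0.55 instead of -0.32, and spleen has no value with the minimum of 5. The count at an unadjusted p below 0.05 fell to 0 under a t distribution with 4 degrees of freedom, with the minimum of 5 and without those entries. The count past an adjusted p of 0.05 was 0 in each alternative run.

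No paired analysis was possible because the tables used hold no values per mouse, so the alternatives of a brother group block and of leaving out each mouse were not run. Depth per library is unknown, so the precision behind the mean normalized counts could not be given.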

Other observations

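Arhgap26 (GRAF1), the paralogue of Arhgap10 with the same role as a GTPase-activating protein, has 6 circles in 17 entries of the authors' deposited tables. Of exons 2 to 18, numbered in each gene's own transcript, 14 of 17 have the same length in both genes. Exons 9, 11 and 12 differ, and so do exons 1, 19, 20, 21 and 23 outside that range. None of the exon ranges of the 6 Arhgap26 circles was found among the 14 of Arhgap10. Both genes begin circles at exons 2 and 9, and both finish circles at exon 10. The Arhgap26 circles cover exons 2-4, 7-10, 7-11, 9-11, 13-14 and 13-17, so exons 14, 15 and 16 are first exons in Arhgap10 and not in Arhgap26. The Arhgap26 exons 9-11 circle had a mean normalized count of 100.2 in brain (rank 12) and 42.5 in heart (rank 13) in the authors' deposited tables. In the same organs the Arhgap10 circles that begin at exon 9 together had 34.3 and 28.3. In kidney the exons 9-11 circle of Arhgap26 stood at 5.48 and its exons 7-11 circle at 21.1 in the authors' deposited table. The Arhgap26 exons 7-11 circle was listed in all 5 organs, as was the Arhgap10 exons 9-13 circle. In liver both had large negative log2 fold changes, -5.68 (SE 2.12, p = 0.00733, adjusted p = 0.15) for Arhgap26 and -4.95 (SE 2.495, p = 0.0475) for Arhgap10 in the authors' deposited table, and in heart 0.12 (SE 0.40) and -0.02 (SE 0.90). Both liver values exceed the log2 of their mean by more than 2.5. This is shared by 15% of all liver entries, all of them negative, and so is not particular to these genes. These comparisons were chosen after the values were seen and were not tested.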
